A study of Mus musculus with 12 samples.

Results

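The genes described here encode the NMDA receptor subunits: Grin1, Grin2a, Grin2b, Grin2c, Grin2d, Grin3a and Grin3b. They were chosen by name, through the Ensembl identifiers of the count tables, and make up 7 of 54446 genes listed. Gene expression was measured by poly(A) RNA sequencing in the hippocampus and the cerebellum of 3 Syt14 knockout mice (Syt14-/-) and 3 wild-type mice (Syt14+/+), which gives 12 libraries in 4 groups of 3. Syt14 encodes synaptotagmin 14, a synaptotagmin family protein, and the study asked about its part in mood disorder and motor coordination. Each mouse gave both tissues, as the animal numbers in the labels show, and replicates within a group are separate animals. No treatment is labelled. Strain, age and the altered part of Syt14 were not given in the sources used here.

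NMDA receptors are glutamate-gated cation channels of excitatory synapses. They open when glutamate and a co-agonist, glycine or D-serine, are both bound while the membrane is depolarised enough to expel magnesium from the pore. A receptor is a tetramer built on the obligatory GluN1 subunit, which Grin1 encodes and which binds the co-agonist. The GluN2 subunits, encoded by Grin2a to Grin2d, bind glutamate and set the channel's kinetics and its sensitivity to magnesium. GluN3A and GluN3B, encoded by Grin3a and Grin3b, bind glycine and give channels that pass less calcium. In rodent forebrain GluN2A and GluN2B are known as the main GluN2 subunits after weaning, whereas mature cerebellar granule cells are known for GluN2A and GluN2C.

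The family is shown first by a stretch that its members have in common, because paralogous genes with long identical stretches can exchange reads in a count table. It is given for Grin1 and for 1 gene of each other class. The 60 coding bases below end the third transmembrane segment, which lines the channel gate, and are given 5′ to 3′ from the GENCODE M21 transcripts for GRCm38. Capitals mark the bases that differ from Grin1 at the same place. In Grin1 the stretch covers coding bases 1966 to 2025.
Grin1: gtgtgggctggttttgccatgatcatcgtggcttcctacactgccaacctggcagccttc
Grin2a: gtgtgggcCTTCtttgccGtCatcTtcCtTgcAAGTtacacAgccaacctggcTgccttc
Grin3b: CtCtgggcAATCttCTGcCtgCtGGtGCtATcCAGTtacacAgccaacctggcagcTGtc
Grin2a differed from Grin1 at 15 of these bases and Grin3b at 24. Over whole transcripts, the longest exactly identical run was found for each of the 21 pairs of members. Its length had a median of 19 and a maximum of 34 bases. Exchange of reads between members was not tested.

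Library totals were 24355572 to 34971359 counts, with any count for 25048 to 26672 genes. Levels are given as CPM, the counts of a gene relative to the library total, scaled by TMM factors over all 12 libraries, and 3 counts was taken as the limit of detection. Sums of markers are given in CPM without the TMM factors. Syt14 itself stood at 28.0 to 30.6 CPM in the knockout hippocampus against 38.1 to 38.9 in the wild-type hippocampus, and at 30.3 to 30.7 against 33.3 to 38.2 CPM in the cerebellum. Knockout libraries thus retained most Syt14 reads, and the difference did not pass the test across all genes in either tissue (edgeR, adjusted p = 0.686 and 0.644). A count over the whole gene includes reads outside the altered part, so it does not check the genotype labels. The tissue labels were borne out by markers: 6 pyramidal cell markers summed to 536 to 582 CPM in the hippocampus and 52.2 to 59.6 in the cerebellum, whereas 5 cerebellar granule cell markers summed to 3175 to 3842 CPM in the cerebellum and 20.5 to 27.1 in the hippocampus. The column headers carry one run token for every hippocampus library and another for every cerebellum library, so tissue and that token cannot be told apart. In tissue homogenates, fewer cells of a type and less RNA per cell cannot be told apart either.

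The first question was which subunits each tissue expressed. The hippocampus carried mainly Grin1, Grin2b and Grin2a, and the cerebellum mainly Grin2c and Grin1. In wild-type mice 5 of the 7 subunit genes (Grin1, Grin2a, Grin2b, Grin2d, Grin3a) were higher in the hippocampus and the other 2 (Grin2c, Grin3b) in the cerebellum, by edgeR's quasi-likelihood test at an adjusted p under 0.05. The tissues differ widely in this test: 66.1% of the 18128 genes tested were called, 33.1% as higher in the hippocampus and 33.0% as lower, so a call by itself is common and the sizes carry the description. The knockout mice, other animals, gave the same 5 and 2, against 64.1% of 18200 genes called, 31.6% as higher and 32.5% as lower. All 7 genes had tissue ranges that did not overlap in either genotype, as had 70.7% of genes tested in wild-type and 70.3% in knockout mice. Grin3b passed the filter on low counts only through its cerebellar libraries, so its pass is no support for its direction; it was called without that filter as well.

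**Figure D1:**
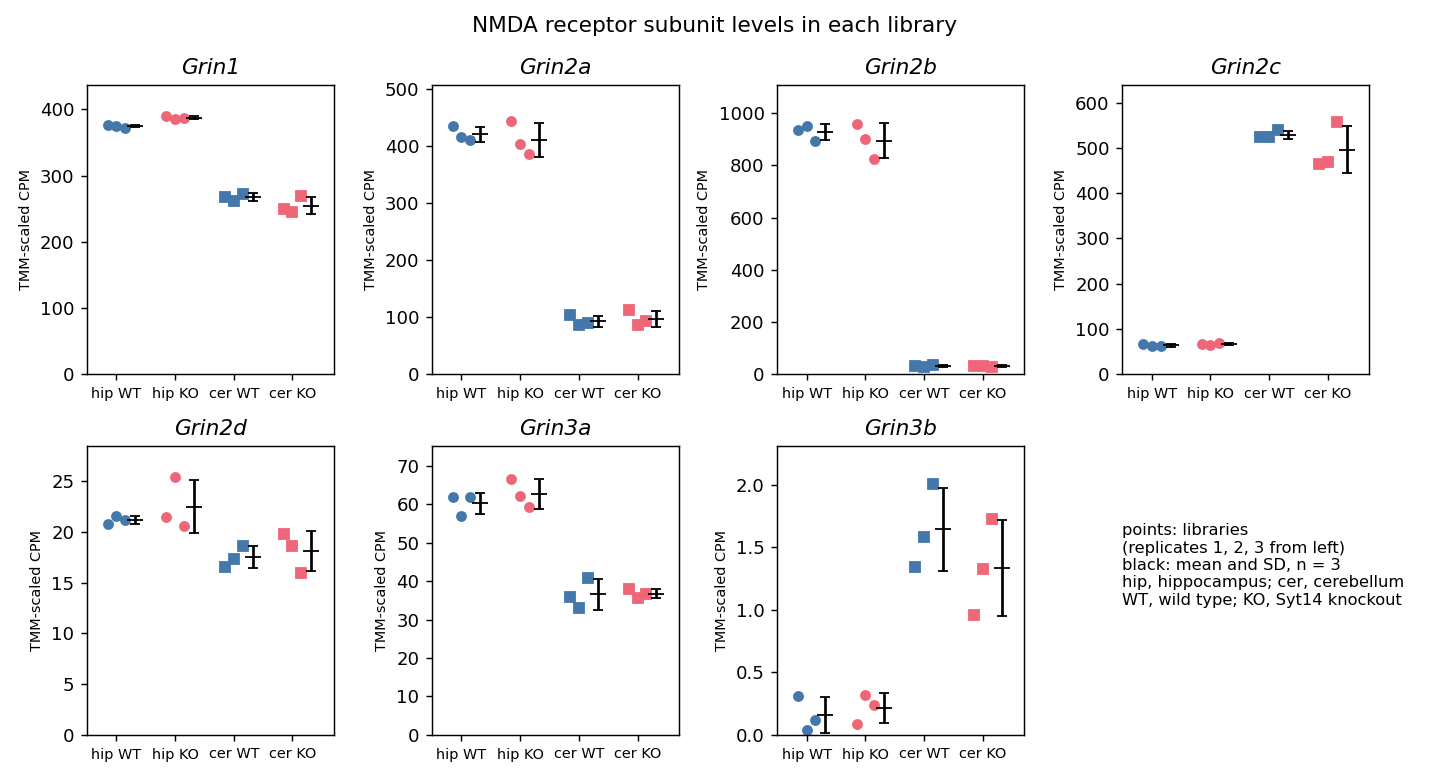
Level of each NMDA receptor subunit gene in the 12 libraries, in TMM-scaled CPM (y axis, linear from 0, with its own scale in each panel) by group (x axis); coloured points are libraries and black marks the mean and SD of 3. The hippocampal libraries lie above the cerebellar ones for Grin1, Grin2a, Grin2b, Grin2d and Grin3a and below them for Grin2c and Grin3b, while knockout and wild-type points lie close together within each tissue.

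Grin1 (ENSMUSG00000026959, GRCm38 chr2:25291181-25319187, minus strand) was abundant in both tissues. Its levels were 376.6, 375.3 and 372.5 CPM in wild-type and 389.8, 385.6 and 387.5 CPM in knockout hippocampus. In the cerebellum they were 268.3, 261.3 and 272.8 CPM in wild-type and 249.9, 245.0 and 269.2 CPM in knockout mice. Every hippocampal library was above every cerebellar one. The log2 fold change of hippocampus over cerebellum was 0.49 ± 0.04 (SE; edgeR, adjusted p = 3.74e-07) in wild-type mice, which is 1.40-fold, and 0.60 ± 0.05 (adjusted p = 4.51e-06), 1.52-fold, in knockout mice. An antisense gene, Grin1os, shares 1307 exon bases with Grin1, or 13.5% of its exons. Grin1os was at 15.4 to 21.4 CPM in all groups and was not called between the tissues (log2 fold change -0.18, adjusted p = 0.133 in wild-type mice). The strand setting of the counting is not given, so reads from a subunit gene and from an overlapping gene on the other strand cannot be told apart.

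Grin2b (ENSMUSG00000030209, chr6:135713233-136173511, minus strand) differed most between the tissues among the GluN2 genes. The wild-type hippocampus had 936.8, 950.8 and 892.8 CPM and the knockout hippocampus 957.0, 900.4 and 823.3 CPM. The cerebellum had 31.6, 28.7 and 34.9 CPM in wild-type and 32.8, 30.4 and 26.2 CPM in knockout mice. The gap between the tissues was thus far wider than the spread within any group. The log2 fold change was 4.87 ± 0.07 (edgeR, adjusted p = 1.77e-14), 29.3-fold, in wild-type mice and 4.90 ± 0.10 (adjusted p = 9.16e-10), 29.9-fold, in knockout mice. By size of change Grin2b ranked 441 of 18128 genes in wild-type mice and 344 of 18200 in knockout mice.

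Grin2a (ENSMUSG00000059003, chr16:9567898-9995560, minus strand) was also lower in the cerebellum, by a smaller factor than Grin2b. Its hippocampal levels were 434.7, 414.8 and 411.0 CPM in wild-type and 442.7, 402.4 and 384.9 CPM in knockout mice. The cerebellar levels were 103.6, 85.2 and 89.4 CPM in wild-type and 111.7, 86.1 and 92.2 CPM in knockout mice. No library of one tissue came near the other tissue's range. The fold was 4.55 in wild-type mice (log2 2.19 ± 0.07; edgeR, adjusted p = 1.05e-11) and 4.23 in knockout mice (2.08 ± 0.10; adjusted p = 8.00e-08).

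Grin2c (ENSMUSG00000020734, chr11:115249169-115267243, minus strand) went the other way. The hippocampus had 66.5, 61.2 and 62.6 CPM in wild-type and 65.5, 63.6 and 68.6 CPM in knockout mice. The cerebellum had 524.4, 523.8 and 538.7 CPM in wild-type and 464.2, 468.0 and 556.3 CPM in knockout mice. Among the members only Grin2c combined a high cerebellar level with a low hippocampal one: Grin3b, the other gene higher in the cerebellum, had at most 2.005 CPM there. Grin2c was 8.32-fold lower in the hippocampus in wild-type mice (log2 fold change -3.06 ± 0.05; edgeR, adjusted p = 3.78e-14) and 7.55-fold lower in knockout mice (-2.92 ± 0.08; adjusted p = 2.72e-09).

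Grin2d (ENSMUSG00000002771, chr7:45831883-45878378, minus strand), a subunit known from interneurons and from the developing brainstem and midbrain, differed little. It stood at 20.8, 21.6 and 21.1 CPM in wild-type and 21.5, 25.4 and 20.6 CPM in knockout hippocampus. In the cerebellum it stood at 16.6, 17.3 and 18.7 CPM in wild-type and 19.8, 18.6 and 15.9 CPM in knockout mice. The tissue ranges were apart, but in knockout mice the lowest hippocampal library, at 20.6 CPM, was close to the highest cerebellar one, at 19.8 CPM, and the libraries within each group lay farther apart than that. The fold was 1.21 in wild-type mice (log2 0.27 ± 0.08; edgeR, adjusted p = 0.00714) and 1.24 in knockout mice (0.31 ± 0.11; adjusted p = 0.0314). Both calls were lost without scaling factors: with plain library totals, an alternative chosen after the data were seen, the log2 fold change was 0.135 (adjusted p = 0.151) and 0.173 (0.196). RLE factors kept the wild-type call (log2 0.284; edgeR, adjusted p = 0.00583). The call in knockout mice was also lost without hippocampus replicate 2 (log2 0.216, adjusted p = 0.119), cerebellum replicate 2 (0.332, 0.0542) or cerebellum replicate 3 (0.23, 0.0894). Over all alternatives the adjusted p ran from 0.00835 to 0.196 there and from 0.00583 to 0.151 in wild-type mice. An antisense gene, Gm45441, shares 643 bases or 9.66% of the exons of Grin2d and differed in the same direction, at 1.76 CPM in wild-type hippocampus and 0.131 CPM in wild-type cerebellum; its part in the Grin2d counts was not tested.

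Grin3a (ENSMUSG00000039579, chr4:49661611-49845744, minus strand) was expressed in both tissues at a modest level. Its hippocampal levels were 61.9, 57.0 and 61.9 CPM in wild-type and 66.8, 62.2 and 59.2 CPM in knockout mice. Its cerebellar levels were 35.8, 33.0 and 40.9 CPM in wild-type and 38.1, 35.7 and 36.6 CPM in knockout mice. Every hippocampal library was higher than every cerebellar one. The log2 fold change was 0.72 ± 0.07 (edgeR, adjusted p = 2.18e-06) in wild-type mice and 0.76 ± 0.06 (adjusted p = 3.35e-06) in knockout mice.

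Grin3b (ENSMUSG00000035745, chr10:79970715-79977190, plus strand), which encodes a subunit known from motor neurons, was low in the cerebellum and close to or under the limit of detection in the hippocampus. The wild-type hippocampus had 8, 1 and 3 counts and the knockout hippocampus 2, 9 and 7 counts. The cerebellum had 34, 59 and 66 counts in wild-type and 26, 39 and 52 counts in knockout mice. The cerebellum was higher in every library. Summed over libraries, the cerebellum exceeded the hippocampus 11.8-fold in wild-type mice (95% counting interval 6.57 to 23.3) and 6.72-fold in knockout mice (4.07 to 11.7); these intervals cover counting error only. Wild-type hippocampus replicate 1 held 8 of the 12 counts, and without it the edgeR log2 fold change went from -3.37 to -4.34 (adjusted p = 2.38e-05, within a range of 1.66e-14 to 0.00033 over all alternatives). Of the gene's exons 1059 bases, or 32.1%, overlap Tmem259 on the other strand. Tmem259 had 2245 to 3799 counts per library, far more than Grin3b, and its level was 92.9 ± 1.93 CPM in wild-type hippocampus and 98.2 ± 4.43 CPM in wild-type cerebellum (SD, n = 3). Its part in the Grin3b counts was not tested.

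**Figure D2:**
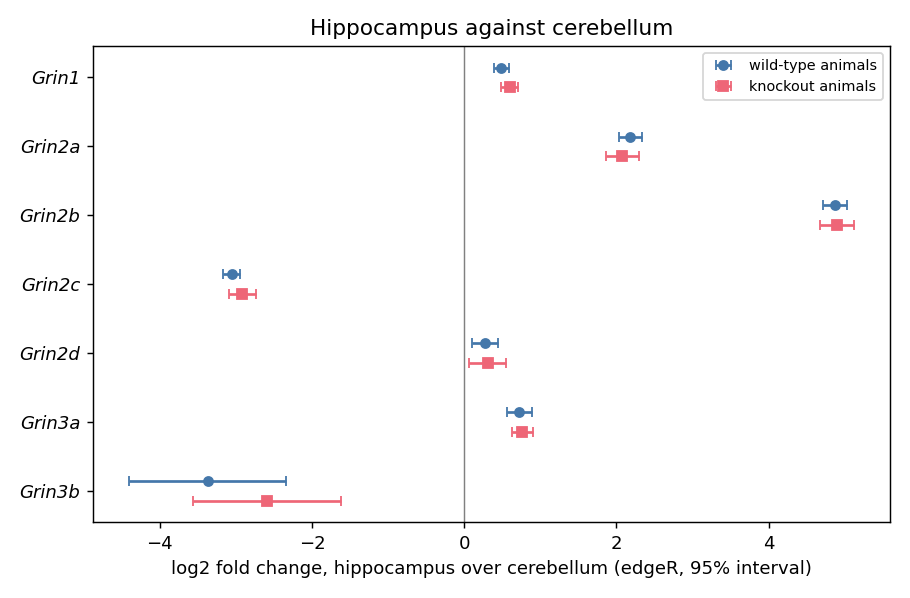
Log2 fold change of hippocampus over cerebellum for each subunit gene (x axis), with 95% intervals from edgeR; circles are wild-type and squares knockout mice, 3 of each. Grin2b lies farthest to the right, at 4.87 and 4.90, and Grin2c and Grin3b lie to the left of 0, with Grin3b's intervals the widest.

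To set the genes against each other, levels were divided by the union of each gene's annotated exons (RPKM, TMM-scaled CPM per kilobase). In wild-type hippocampus the order was Grin1 (38.6 ± 0.214 RPKM, SD, n = 3), Grin2b (37.3 ± 1.22), Grin2a (23.4 ± 0.710), Grin2c (12.6 ± 0.546), Grin3a (4.91 ± 0.232), Grin2d (3.18 ± 0.0621) and Grin3b (0.0476 ± 0.0432). All neighbours in that order had separate ranges, although Grin1 exceeded Grin2b only 1.04-fold. In wild-type cerebellum the order was Grin2c (105.0 ± 1.67 RPKM), Grin1 (27.6 ± 0.596), Grin2a (5.17 ± 0.536), Grin3a (2.98 ± 0.327), Grin2d (2.63 ± 0.158), Grin2b (1.28 ± 0.125) and Grin3b (0.499 ± 0.101). There Grin3a and Grin2d overlapped, and the other neighbours did not. Knockout mice gave the same order in each tissue, with the same overlap in the cerebellum. On this scale Grin2b held place 2 of 7 in the hippocampus and place 6 in the cerebellum, and Grin2c place 4 and place 1. These places depend on the length used. For coding length too, the counts were those over all exons, untranslated bases included, so that scale is not a density of coding reads. Per kilobase of coding sequence Grin2b held places 1 and 5, and Grin2c places 5 and 1. Divided by coding length, Grin2b led in wild-type hippocampus with 208.5 RPKM and Grin1 followed with 130.3. The exons of Grin2b count 24842 bases, of which only 4446 are coding.

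The make-up of the GluN2 transcripts was then described within each library, where scaling between libraries plays no part. Of the summed GluN2 counts per kilobase of exon, wild-type hippocampus had 48.8 ± 0.933% Grin2b, 30.6 ± 0.448% Grin2a, 16.5 ± 0.558% Grin2c and 4.16 ± 0.151% Grin2d (SD, n = 3). Wild-type cerebellum had 92.04 ± 0.416% Grin2c, 4.53 ± 0.476% Grin2a, 2.30 ± 0.110% Grin2d and 1.12 ± 0.0912% Grin2b. Grin2b was the leading GluN2 transcript in every hippocampal library and Grin2c in every cerebellar one. With the same counts over all exons divided by coding length, the leading shares were 63.8% for Grin2b and 81.3% for Grin2c. On that scale Grin2c made up 5.23% in wild-type hippocampus, and Grin2a 12.1% and Grin2b 4.08% in wild-type cerebellum. The small share of Grin2d turned its direction, from higher in the hippocampus to 1.63% there against 2.52% in the cerebellum. Per kilobase of the longest coding transcript it kept its direction, at 4.63 and 2.71%.

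**Figure D3:**
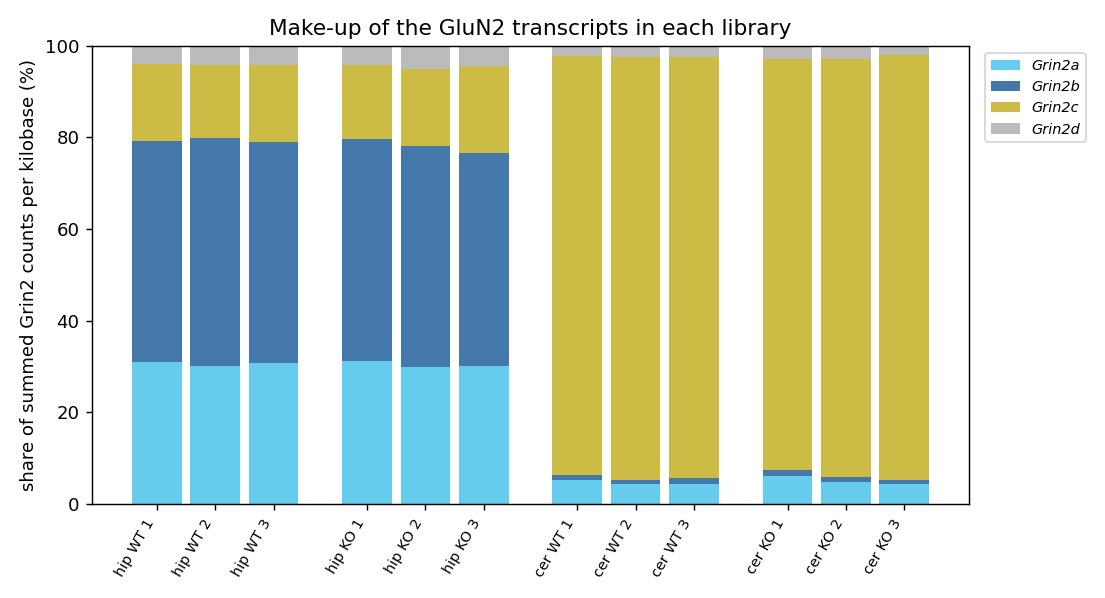
Share of Grin2a, Grin2b, Grin2c and Grin2d in the summed GluN2 counts per kilobase of exon (y axis, percent, from 0) in each of the 12 libraries (x axis, group and replicate). Grin2b and Grin2a fill most of each hippocampal bar and Grin2c fills 89.8 to 92.8% of each cerebellar bar, in both genotypes.

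Between Grin2a and Grin2b alone, the balance differed by tissue and little by genotype. Grin2a made up 31.7, 30.4 and 31.5% of their summed counts in wild-type and 31.6, 30.9 and 31.9% in knockout hippocampus. In the cerebellum the share was 76.6, 74.8 and 71.9% in wild-type and 77.3, 73.9 and 77.9% in knockout mice. Grin2a was the minor partner in all 6 hippocampal and the major one in all 6 cerebellar libraries. Within animals the share differed by a mean of -44.1 percentage points, hippocampus minus cerebellum, and was lower in the hippocampus in 6 of 6 animals (two-sided exact sign-flip permutation test, p = 0.03125, the smallest that 6 animals can give; adjusted over 18 share and ratio tests, 0.09375). Knockout and wild-type mice differed by 0.26 points in the hippocampus (exact permutation test, p = 0.6) and 1.93 points in the cerebellum (p = 0.4), less than the SD of either group in both tissues. All 6 tissue tests in that family, those of the 4 GluN2 shares, of the Grin2a share of the pair and of the ratio to Grin1, gave the same smallest p and the same adjusted p of 0.09375. The family's 12 genotype tests gave exact p of 0.2 to 1.0, where 3 against 3 libraries cannot go below 0.1.

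The summed GluN2 level stood at 1.98 ± 0.0390 times that of Grin1 in wild-type hippocampus and 4.14 ± 0.0339 times in wild-type cerebellum, per kilobase of exon (SD, n = 3). That order of the tissues holds only for some lengths. With the same counts over all exons divided by coding length, the ratio was 2.51 in the hippocampus against 1.88 in the cerebellum. Per kilobase of the longest coding transcript it was 0.959 and 1.90, the same order as per kilobase of exon. In knockout mice the hippocampus had 1.88 ± 0.0963 and the cerebellum 4.10 ± 0.164 per kilobase of exon (exact permutation test against wild type, p = 0.2 and p = 0.8). With a smallest possible p of 0.1 these tests leave the difference undecided.

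The study's main comparison was knockout against wild type within each tissue. In the hippocampus no subunit gene was called: 0 of 6 tested by edgeR, where 0.0% of 17693 genes were called, with Grin3b left out by the filter on low counts. None reached an unadjusted p under 0.05, as 4.34% of all genes did, and DESeq2 and limma-voom called 0 as well. Adjusted p was 0.995 for each. Log2 fold changes lay between -0.05 and 0.09.

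Grin1 alone had separate ranges in the hippocampus. Its means were 387.6 ± 2.06 CPM in knockout and 374.8 ± 2.07 CPM in wild-type mice (SD, n = 3), so that every knockout library was above every wild-type one. Separate ranges were seen in 9.81% of genes tested, and against that background 1 of 6 members is not a result about the family. The log2 fold change of Grin1 was 0.05 ± 0.04 (SE), and the 95% interval placed the knockout level at 97.9 to 109.5% of wild type. Intervals for the others were 90.3 to 105.7% for Grin2a, 89.1 to 104.6% for Grin2b, 95.99 to 112.8% for Grin2c, 93.1 to 121.9% for Grin2d and 95.3 to 113.9% for Grin3a. Changes beyond these bounds were thus not supported in either direction, while smaller ones could not be seen with 3 animals a group. For Grin3b, 18 knockout and 12 wild-type counts gave a ratio of 1.43 with a counting interval of 0.652 to 3.26. Unlike the intervals above, it covers counting error only and not the spread between animals.

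Some library-level differences in the hippocampus ran beside differences in markers. Knockout replicate 2 had the highest Grin2d level, 25.4 CPM, and also the highest sum of 4 thalamus markers, 164.7 CPM against 67.1 and 86.6 in the other knockout and 71.8 to 89.9 in the wild-type libraries. It was also the lowest hippocampal library for the pyramidal cell, Purkinje cell, astrocyte and striatum lists. Without that library the Grin2d fold change turned from 0.09 to -0.01 (log2). Knockout replicate 3 had the lowest Grin2a and Grin2b levels, 384.9 and 823.3 CPM, and the lowest sum of 4 dentate granule cell markers, 230.9 CPM against 320.4 and 279.7 in the other knockout and 249.03 to 298.1 in the wild-type libraries. It also had the highest hippocampal sums of oligodendrocyte markers, 6233 CPM against 4225 to 6137, and of striatum markers, 66.3 against 43.7 to 56.2. For meningeal, choroid plexus, brainstem and cerebellar granule cell markers it was again the lowest hippocampal library. Without it the fold changes of Grin2a and Grin2b turned from -0.03 and -0.05 to 0.0092 and 0.0040 (log2). Endothelial markers, 5 in number, summed to 163.0 to 192.2 CPM in knockout and 199.3 to 226.6 CPM in wild-type hippocampus, so that these ranges were separate as those of Grin1 were. The part of these cell types in the subunit levels was not tested.

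The cerebellum also gave no call: 0 of 7 by edgeR, where 0.0113% of 17733 genes were called. No member had an unadjusted p under 0.05, against 6.77% of genes, and DESeq2 and limma-voom called 0 of 7. The ranges of the genotypes overlapped for all 7, whereas they were separate for 11.9% of genes tested. Grin2c, the leading subunit transcript there, was at 496.2 ± 52.1 CPM in knockout and 529.0 ± 8.43 CPM in wild-type mice (log2 fold change -0.09 ± 0.07; edgeR, adjusted p = 0.839), with a 95% interval of 84.4 to 104.1% of wild type. For Grin1 the change was -0.07 ± 0.05 on the log2 scale (adjusted p = 0.818), with an interval of 88.6 to 102.3%. The remaining intervals were 89.97 to 121.0% for Grin2a, 81.3 to 108.2% for Grin2b, 89.2 to 119.3% for Grin2d, 89.5 to 112.7% for Grin3a and 54.5 to 120.9% for Grin3b. They are wider than in the hippocampus for each gene tested in both tissues.

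The knockout libraries of Grin2c fell on both sides of wild type. Replicate 3 was at 556.3 CPM, above all wild-type libraries, and replicates 1 and 2 at 464.2 and 468.0 CPM, below all of them. Without replicate 3 the log2 fold change was -0.18 (edgeR, adjusted p = 0.222, the lowest of all alternatives, which reached 1.0), so it stayed uncalled. The same libraries differed in markers of neighbouring tissue: 7 brainstem markers summed to 20.9 and 41.7 CPM in knockout replicates 1 and 2, to 1.76 CPM in replicate 3 and to 2.002 to 6.53 CPM in wild-type mice. Choroid plexus markers, 5 in number, summed to 1011 and 1869 CPM in knockout replicates 1 and 2, to 26.7 CPM in replicate 3 and to 1073 to 2795 CPM in wild-type mice. Cerebellar granule cell markers were highest in knockout replicate 3, at 3842 CPM, against 3175 and 3433 in the other knockout and 3407 to 3708 in the wild-type libraries. None of the markers in these lists was at 0 over a whole cerebellar group. Without TMM factors, knockout and wild-type ranges were separate for the summed markers of oligodendrocyte precursors (137.8 to 151.1 against 124.0 to 128.9 CPM), microglia (95.5 to 101.4 against 83.5 to 86.4), endothelium (251.9 to 261.0 against 243.8 to 247.1) and, in the cerebellum, those of dentate granule cells (91.7 to 95.2 against 78.6 to 90.9). Divided by the TMM factors, the sums for endothelium and dentate granule cells overlapped between genotypes. Those for oligodendrocyte precursors and microglia stayed separate. The part of these tissues and cell types in the Grin2c levels was not tested.

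**Figure D4:**
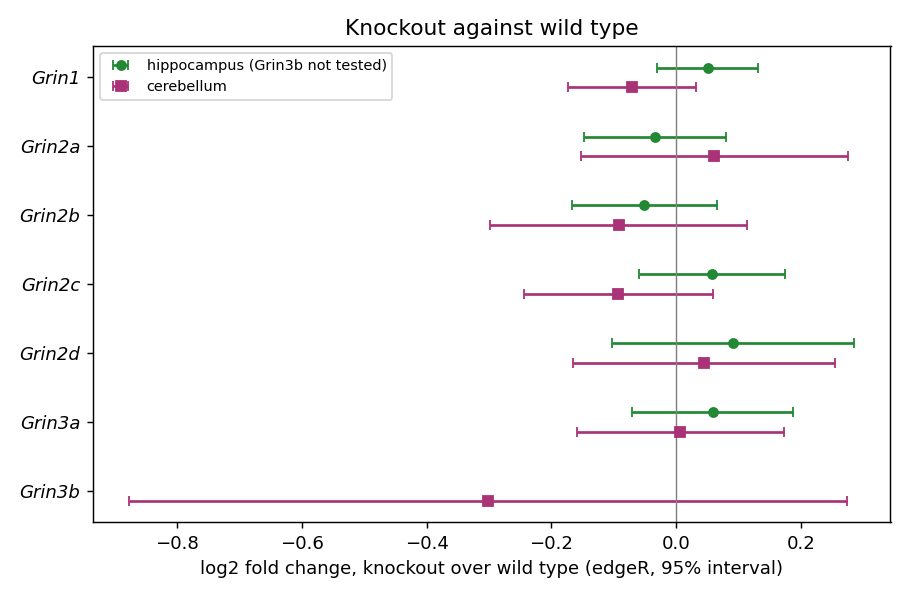
Log2 fold change of knockout over wild type for each subunit gene (x axis) with 95% intervals from edgeR, 3 animals per group; circles are hippocampus and squares cerebellum. All 13 intervals include 0; Grin3b was tested in the cerebellum alone and has the widest interval.

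Whether the genotype effect differed between the tissues was tested as an interaction over all 12 libraries. It was called for 0 of 7 subunit genes by edgeR, where 0.0105% of 19027 genes were called. No member had an unadjusted p under 0.05 by edgeR, where 5.34% of all genes had one, or by limma-voom. By DESeq2 1 member, Grin1, had one, and 0 were called after adjustment. The share of all genes with such a p by DESeq2 is not given, so that count has no like background. Grin1 had the smallest p: its effect was higher in the hippocampus by 0.12 ± 0.06 on the log2 scale (adjusted p = 0.920). Grin2c followed with 0.15 ± 0.09 (adjusted p = 0.935). Adjusted p lay between 0.920 and 0.993 over the 7 genes.

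The wider NMDA receptor pathway was followed through 59 genes in 5 roles: postsynaptic scaffolds, kinases and phosphatases that act on the receptor, supply and clearance of co-agonist, partners and trafficking proteins, and calcium signalling downstream. Between genotypes none was called by edgeR, with 0 of 57 tested in the hippocampus and 0 of 59 in the cerebellum. Of all genes, 0.0% and 0.0113% were called. DESeq2 and limma-voom also called 0 of the list in both, where DESeq2 called 4 and 37 over all genes. With so few calls over all genes, these counts are no result about the list. An unadjusted p under 0.05 was found for 0 of 57 genes of the list in the hippocampus and 8 of 59 in the cerebellum by edgeR, against 4.34% and 6.77% of all genes. The part was smaller than over all genes in the hippocampus and larger in the cerebellum, and neither difference was tested. The list's median log2 fold change was 0.0028 in the hippocampus, where it was 0.0017 over all genes, and -0.0277 in the cerebellum, where it was 0.0025. The smallest p in the hippocampus was that of Shank3, a postsynaptic scaffold, at 378.5 ± 4.48 CPM in knockout and 358.4 ± 7.69 CPM in wild-type mice (edgeR, adjusted p = 0.995). In the cerebellum it was that of Dao, the D-amino acid oxidase that breaks down D-serine, at 49.9 ± 4.43 CPM in knockout and 57.9 ± 2.85 CPM in wild-type mice (edgeR, adjusted p = 0.645). In the interaction 0 of 59 were called, against 0.0105% of all genes, and 5 had an unadjusted p under 0.05, against 5.34%, with the smallest for Prkca, a protein kinase C (log2 difference -0.18, edgeR, adjusted p = 0.897).

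Between the tissues of wild-type mice, 34 of the 59 pathway genes were higher in the hippocampus, 15 were lower and 10 were not called. Of all genes tested 66.1% were called, 33.1% as higher and 33.0% as lower. A larger part of the list than of all genes was thus higher, and a smaller part lower. The list's median log2 fold change was 0.37, against -0.02 over all genes tested. Called with more than 2-fold were 25 of 59, a larger part than the 25.9% over all genes. Whether the list differs from all genes was not tested. Counts by role are a description of lists of 10 to 13 genes, and a difference between roles was not tested. Of the kinases and phosphatases 10 of 12 were higher in the hippocampus and 0 were lower, and of the calcium signalling genes 8 were higher and 2 lower. Scaffolds had 8 higher and 3 lower of 13, and partners 6 higher and 4 lower of 12. Among the co-agonist genes 6 of 10 were instead higher in the cerebellum and 2 in the hippocampus. Those 6 include Dao and Slc6a5, which passed the filter on low counts only through their cerebellar libraries. Knockout mice gave 35 higher, 13 lower and 11 not called, where 31.6% of all genes were higher and 32.5% lower, with a median of 0.33 against -0.03 over all genes. Of the co-agonist genes 3 were higher and 5 lower there, again with Dao and Slc6a5 among the lower.

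Camk2a, the calcium/calmodulin kinase that binds GluN2B, was at 4120 ± 32.9 CPM in wild-type hippocampus and 97.6 ± 7.77 CPM in wild-type cerebellum (log2 fold change 5.40; edgeR, adjusted p = 6.41e-15). Dapk1, a death-associated kinase, was at 177.9 ± 8.63 and 16.1 ± 0.945 CPM. Neto1, an auxiliary protein of glutamate receptors, was at 133.4 ± 9.11 CPM in the hippocampus and 2.65 ± 0.382 CPM in the cerebellum (5.67). These 3 genes lay on the same side as Grin2b. Nsmf, which carries signals from synaptic NMDA receptors to the nucleus, was at 816.2 ± 25.8 and 82.8 ± 1.22 CPM. The scaffold Homer1 was at 142.2 ± 1.26 and 40.8 ± 3.53 CPM. Both were higher in the hippocampus as well, whereas the scaffold Lin7a was lower, at 23.9 ± 1.66 against 120.9 ± 7.09 CPM, and so was Reln, the secreted protein reelin, at 94.8 ± 4.71 against 380.9 ± 49.4 CPM. Dao was at 0.197 ± 0.180 CPM in the hippocampus and 57.9 ± 2.85 CPM in the cerebellum. Slc6a5, the neuronal glycine transporter GlyT2, was at 0.0393 ± 0.0393 CPM in the hippocampus, under the limit of detection, and 53.3 ± 4.001 CPM in the cerebellum. Dao and Slc6a5 passed the filter on low counts only through their cerebellar libraries, so their pass is no support for their direction.

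In knockout mice Camk2a (log2 fold change 5.34), Neto1 (5.38), Nsmf (3.24) and Lin7a (-2.21) were called in the same directions. The other genes with the smallest p in their role there were Dlg3, the scaffold SAP102, at 267.5 ± 13.6 CPM in the hippocampus and 95.5 ± 3.83 CPM in the cerebellum, Prkca at 393.2 ± 8.80 and 94.03 ± 3.03 CPM, and Nlgn1, the adhesion protein neuroligin 1, at 89.6 ± 1.002 and 29.6 ± 2.80 CPM. Dao and Slc6a5 again had the smallest p of the co-agonist genes, at 49.9 ± 4.43 and 49.0 ± 4.18 CPM in the cerebellum. Their hippocampal levels, 0.119 ± 0.0694 and 0.0729 ± 0.0924 CPM, were close to or under the limit of detection. Here too they passed the filter only through the cerebellar libraries.

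For each subunit gene with a mean of at least 1 CPM, the protein coding genes closest in pattern over the 12 libraries were found by the root mean square difference of centred log2 CPM. This is a description over libraries that differ mostly by tissue and that share 6 animals. Grin1 was closest to Pi4ka and Bbs1, both at a difference of 0.0381. For Grin2a the closest were Pde8b (0.0834) and Lmo1 (0.0950), and for Grin2b Ak5 (0.103) and Hpca (0.138). Ak5 stood at 296.0 CPM in wild-type hippocampus and 9.29 CPM in wild-type cerebellum, and Hpca, which encodes hippocalcin, at 1123 and 45.7 CPM. Grin2c was closest to Kcnk3, a potassium channel gene with 16.1 and 125.0 CPM (0.0637), and to Afap1l2 with 12.4 and 104.6 CPM (0.0801). Those of Grin2d were Rabep1 (0.0750) and Scoc (0.0794), and those of Grin3a were Gnaq (0.0571), a G protein alpha subunit, and Mast4 (0.0602). Grin3b was too low in the hippocampus to be given any.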

How the data were processed

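RNA of 12 libraries was sequenced after poly(A) selection and dUTP strand marking, per the labels' protocols. Each tissue has a deposited table of whole-number gene counts, not scaled. Trimmomatic 0.39, STAR 2.7.10, featureCounts 2.0.3 and the builds mm10 and GRCm38 are named in the submitters' processing notes. Annotation release, strand setting and treatment of multiply mapped reads were not given in the sources used here. Of 54446 identifiers 54409 matched GENCODE M21 (GRCm38), which gave symbols, positions, lengths and sequences.

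Both tables were joined by identifier. Each comparison was fitted over all genes with edgeR 4.0.16 in R 4.3.3 (filterByExpr with a minimum count of 10 and total of 15, TMM factors, two-sided quasi-likelihood test), and called at 0.05 after Benjamini-Hochberg adjustment. The common biological coefficient of variation was 6.76 to 8.97%. The fits were also run on simulated counts with known changes, whose outcome is not reported here and is not used as support. Knockout was compared with wild type in each tissue, the tissues within each genotype, and the interaction over all libraries. Shares used exact permutation tests with scipy 1.17.1. Alternatives were DESeq2 1.42.0, limma 3.58.1 with voom, RLE factors, plain library totals, no filter, each library left out, a replicate block, all libraries in a single fit, and other gene lengths. The replicate block was by replicate number between genotypes and by animal for the tissue and interaction fits. In their main form the tissue and interaction fits did not use the pairing of tissues within animals.

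The members and lists were chosen with earlier results of these data known. All 7 members are named, and so are, from each pathway role, up to 2 called genes with the smallest p, or the list's smallest p where none was called. A gene that this rule names, and some sequences, are not reported here. Of 15 marker lists checked, those given are the tissue markers, some that moved with a subunit and those with separate genotype ranges without TMM factors. Same-numbered libraries of the 2 tissues come from the same animal, as the animal numbers in the labels show; their deviations from the group means correlated at 0.0619 to 0.0814 in wild-type and 0.00707 to 0.0483 in knockout mice.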

Additional observations from a re-analysis of the deposited data

How the results depend on the processing

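No alternative moved a subunit gene past the threshold between genotypes or in the interaction, and the tissue calls were 7 of 7 in each genotype under every alternative run except the Grin2d losses, which left 6. Fold changes turned direction only for uncalled genotype effects and interactions, when a library was left out. In the hippocampus the log2 ranges were -0.0941 to 0.00921 for Grin2a, -0.105 to 0.00404 for Grin2b and -0.0108 to 0.152 for Grin2d. In the cerebellum they were -0.0557 to 0.144 for Grin2a, -0.0226 to 0.133 for Grin2d and -0.0608 to 0.096 for Grin3a. In the interaction they were -0.184 to 0.0174 for Grin2a, -0.0478 to 0.112 for Grin2b, -0.0553 to 0.11 for Grin2d and -0.0413 to 0.12 for Grin3a. Here the alternative's construction, 1 library fewer, changes the value.

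Per kilobase of coding sequence and of the longest coding transcript, the wild-type ratio of summed GluN2 to Grin1 was 2.51 and 0.959 in the hippocampus (1.98 per kilobase of exon) and 1.88 and 1.90 in the cerebellum (4.14). The share of Grin2b in wild-type hippocampus was 63.8 and 45.8% (48.8%), and that of Grin2c in wild-type cerebellum 81.3 and 90.9% (92.04%). Only the gene length differs between these values, and the counts were over all exons throughout. Coding length turned the tissue direction of the ratio and of the Grin2d share, while the longest coding transcript kept both.

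Counts over all genes varied more. Knockout against wild type gave 0 calls in the hippocampus (4 with DESeq2, 77 without the filter, 2 with the replicate block) and 2 in the cerebellum, Cck and Fosl2, chosen for naming after their values were seen (37 with DESeq2, 417 without the filter, 4 with all 12 libraries fitted, 36 with the replicate block). The interaction gave the same 2 genes (10 with DESeq2, 275 without the filter). Leaving out a library gave 0 to 2, 2 to 33 and 2 to 44 calls; the highest came without knockout replicate 3, of the hippocampus in the first and the cerebellum in the others, and 4 came without cerebellum wild-type replicate 3 in the cerebellum and without hippocampus wild-type replicate 1 in the interaction. The cause was not tested. Plain library totals moved the median tissue difference of all genes from -0.0221 to -0.162 in wild-type and from -0.0251 to -0.162 in knockout mice, and the share of calls higher in the hippocampus from 50.1 to 38.9% and from 49.3 to 38.1%. No subunit gene changed direction with that scaling.

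Knockout and wild-type mice share only replicate numbers: same-numbered libraries correlated at -0.00803, -0.00654 and 0.0443 in the hippocampus and 0.0852, 0.142 and 0.251 in the cerebellum. The replicate block, by animal for the tissue and interaction fits, called 0 subunit genes between genotypes, 0 in the interaction and 7 between tissues in each genotype. With the replicate block, 15 of the 59 pathway genes had an unadjusted p under 0.05 in the cerebellum (8 without it), and 0 were called. The share of all genes with such a p under the block is not given, so the count is no result about the list. Calls over all genes in the cerebellum rose too, from 2 to 36 with the block. Depth limits only Grin3b, whose hippocampal counts of 1 to 9 allow no statement on genotype.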
